A study of Mus musculus with 52 samples.

Results

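SmcHD1 peaks were described around 10 genes of the mouse X chromosome that belong to multicopy gene groups. The genes were Cldn34c1, Cldn34c2 and Cldn34c3, Srsx, Luzp4, and Btbd35f6, Btbd35f12, Btbd35f13, Btbd35f14 and Btbd35f15. They are 10 of 55450 annotated genes and 10 of the 948 protein-coding genes of the X in the GENCODE M21 annotation of mm10. They were picked because SmcHD1 peaks lie densely beside most of them in wild-type cells, so the SmcHD1 wt counts and spacings are a description and carry no test. In mm10 coordinates the Btbd35f genes lie at chrX:33313379-33315286 (Btbd35f12), chrX:33575398-33577314 (Btbd35f15), chrX:33657172-33658872 (Btbd35f13), chrX:33700649-33702349 (Btbd35f14) and chrX:33955044-33956540 (Btbd35f6), with Btbd35f12 and Btbd35f13 on the plus strand and the others on the minus strand. Cldn34c1 (chrX:123103495-123188795), Cldn34c2 (chrX:123581700-123602134) and Cldn34c3 (chrX:123793665-123813765) follow each other on the plus strand, with Srsx (chrX:123221399-123222481, minus strand) after the first of them. Luzp4 lies at chrX:148857640-148924139 on the plus strand. Each gene was extended by 100 kb on both sides, overlapping windows of a group were merged, and a peak belonged to a region when its midpoint lay inside.

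The cells were female clonal mouse embryonic fibroblasts (MEFs) from an F2 cross between M.m.domesticus FVB and M.m.Castaneus, in which the inactive X (Xi) of the wt and mut clones is the castaneus chromosome. The wt list came from clone Wt2A1. The mut list came from clone Mut5A6, whose cells carry the germline MommeD1 null allele of SmcHD1 (spelled MomeD1 in the labels), so SmcHD1 was missing from early development. The somKO list came from the CRISPR KO clones A3-3 and D4, in which SmcHD1 was removed in already differentiated fibroblasts of another wild-type clone. That parent clone carries an extra chromosome set, with FVB in excess over castaneus. Genotype, clone and chromosome number thus change together and cannot be told apart here. Chromatin for SmcHD1 and Rad21 was crosslinked with EGS and formaldehyde, whereas formaldehyde on its own was used for CTCF.

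For SmcHD1 there was 1 list for wt and 1 for mut, and for CTCF and Rad21 there was 1 list for each of wt, mut and somKO. Each of the 8 lists was called on the merged reads of all libraries of its group, 2 to 4 libraries a list, and on reads of both alleles together. The lists therefore hold no spread between replicates, no depth, and no separation of Xi from the active X. Intervals given below are 95% intervals for counting error only. Peak numbers were 6993 for SmcHD1 wt with 1792 on the X, and 244 for SmcHD1 mut with 1 on the X. The CTCF lists held between 57798 and 69736 peaks and the Rad21 lists between 66031 and 89974, with somKO the longest list for both antibodies.

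SmcHD1 is a noncanonical SMC protein that gathers on Xi. In cells that lack it from early development, many Xi genes are expressed and most Xi CpG islands are less methylated. The paper saw no such activation of Xi genes after its removal in already differentiated fibroblasts. CTCF is a zinc finger protein that binds a long DNA motif and halts the cohesin ring, of which Rad21 is a subunit. Multicopy X genes arose by repeated duplication, often sit in large arrays of near-identical copies, and many of them are expressed in germ cells of the testis. Cldn34c genes encode claudins, the membrane proteins of tight junctions. Luzp4 encodes a leucine zipper protein, and its human counterpart is known as an mRNA export adaptor. Btbd35f genes encode BTB domain proteins, a domain through which proteins pair with each other.

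The Cldn34c genes, and the Btbd35f pairs that were aligned, shared long stretches of almost the same sequence in the reference genome. A 17.6 kb stretch of Cldn34c3 matched Cldn34c2 at 99% identity and Cldn34c1 at 98.8%. Cldn34c4, a relative outside the 10 genes, aligned over 37.8% of Cldn34c3, with 73.8% identity in the longest aligned piece of 2.40 kb. The 5 aligned pairs of Btbd35f genes matched at 99.5% to 99.8% over 1.5 to 1.91 kb. Srsx and Luzp4 were not aligned to other genes in this way. Reads from such copies can be placed at more than 1 site, and how multi-mapping reads were treated is not given in the sources used here. The reference is also a C57BL/6J genome, so the number of copies in FVB and castaneus cells may differ from the one used to place the peaks.

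The sequences under the peaks showed what kind of DNA this was. The first below is the central part of the SmcHD1 wt peak of highest score near the Cldn34c genes, in GRCm38 (mm10) on the plus strand at chrX:123492383-123492682, with the 6 letters CCCTAA in capitals. The second is the CTCF somKO peak at chrX:123050334-123050619, also on the plus strand, which is 1 copy of a tandem repeat upstream of Cldn34c1. Its capitals mark the longest stretch that was identical in all 13 copies. The third is the central part of the SmcHD1 wt peak of highest score near the Btbd35f genes, at chrX:33931176-33931475 on the plus strand, with no capitals.
Cldn34c top peak: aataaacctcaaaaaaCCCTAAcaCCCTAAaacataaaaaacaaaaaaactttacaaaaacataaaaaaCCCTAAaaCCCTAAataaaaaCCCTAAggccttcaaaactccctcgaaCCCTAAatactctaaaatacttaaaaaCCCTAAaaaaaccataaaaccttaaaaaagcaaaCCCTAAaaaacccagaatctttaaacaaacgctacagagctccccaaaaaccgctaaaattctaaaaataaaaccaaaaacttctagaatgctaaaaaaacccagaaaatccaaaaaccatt
Repeat copy before Cldn34c1: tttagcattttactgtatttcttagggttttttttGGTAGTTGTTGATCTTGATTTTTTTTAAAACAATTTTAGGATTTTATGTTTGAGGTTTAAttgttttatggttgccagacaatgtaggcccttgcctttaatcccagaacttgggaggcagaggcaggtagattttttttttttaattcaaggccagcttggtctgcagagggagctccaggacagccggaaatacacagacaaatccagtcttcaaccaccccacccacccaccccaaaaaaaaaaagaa
Btbd35f top peak: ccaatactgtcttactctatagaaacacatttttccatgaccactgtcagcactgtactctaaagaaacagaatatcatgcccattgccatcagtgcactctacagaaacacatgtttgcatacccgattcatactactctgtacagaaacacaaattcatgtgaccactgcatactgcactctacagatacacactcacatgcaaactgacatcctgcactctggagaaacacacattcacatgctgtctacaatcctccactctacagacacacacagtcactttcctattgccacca

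The peak lists bear directly on 3 promoters, each taken as 250 bases before to 50 after the start in the RefSeq table (GRCm38.p6). Of the 10 genes, 6 had an entry in that table. The Srsx promoter is at chrX:123222426-123222725 on the minus strand, and its capitals mark the 201 bases inside a SmcHD1 wt peak. The Luzp4 promoter is at chrX:148882326-148882625 on the plus strand and lies whole inside a SmcHD1 wt peak. The Cldn34c1 promoter is at chrX:123103273-123103572 on the plus strand and overlapped Rad21 peaks. In the Luzp4 and Cldn34c1 sequences the capitals mark CG.
Srsx promoter: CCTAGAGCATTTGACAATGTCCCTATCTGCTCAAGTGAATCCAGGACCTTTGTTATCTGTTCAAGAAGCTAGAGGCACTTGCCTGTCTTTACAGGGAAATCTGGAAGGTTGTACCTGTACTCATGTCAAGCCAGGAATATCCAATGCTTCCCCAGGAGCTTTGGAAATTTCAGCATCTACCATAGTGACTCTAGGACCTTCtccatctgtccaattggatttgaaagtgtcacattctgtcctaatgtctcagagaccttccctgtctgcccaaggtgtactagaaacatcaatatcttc
Luzp4 promoter: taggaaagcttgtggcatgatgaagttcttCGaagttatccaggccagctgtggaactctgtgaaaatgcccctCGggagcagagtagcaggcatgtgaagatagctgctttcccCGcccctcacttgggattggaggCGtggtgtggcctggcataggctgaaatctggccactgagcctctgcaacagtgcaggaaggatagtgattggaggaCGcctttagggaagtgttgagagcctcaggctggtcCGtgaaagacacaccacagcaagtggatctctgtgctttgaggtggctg
Cldn34c1 promoter: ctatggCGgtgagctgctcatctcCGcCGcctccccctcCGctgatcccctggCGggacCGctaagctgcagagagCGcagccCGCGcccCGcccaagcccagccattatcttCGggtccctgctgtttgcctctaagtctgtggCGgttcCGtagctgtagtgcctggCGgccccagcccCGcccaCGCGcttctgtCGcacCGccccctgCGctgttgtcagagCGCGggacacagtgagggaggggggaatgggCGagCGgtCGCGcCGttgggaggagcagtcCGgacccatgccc
The Cldn34c1 promoter held 28 CG and was 69.7% G or C. The Luzp4 promoter held 6 CG and was 54.3% G or C, and the Srsx promoter held 0 CG and was 44.3% G or C.

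SmcHD1 wt peaks stood in dense rows around these genes. The regions held 261 SmcHD1 wt peaks in 1748 kb, 14.9 per 100 kb, which was 14.6% of the SmcHD1 wt peaks of the X on 1.02% of its length. The rest of the X held 1531 peaks, 0.904 per 100 kb. In SmcHD1 mut the number was 0 in every group's region. Of all SmcHD1 wt peaks 97.7% had no overlapping mut peak, and of those on the X 99.9%, so the absence in mut held for nearly the whole chromosome. A count of 0 among 261 peaks allows a share of up to 1.15%, taken as 3 counts of the total.

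Luzp4 had the densest region, with 70 SmcHD1 wt peaks, 26.3 per 100 kb. The Srsx region had 39 peaks, 19.4 per 100 kb, and the Cldn34c regions 101 peaks, 14.1 per 100 kb. The Btbd35f regions had 81 peaks, 11.1 per 100 kb. The Srsx window overlaps that of Cldn34c1, so these 2 groups share peaks and their counts must not be added.

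**Figure D1:**
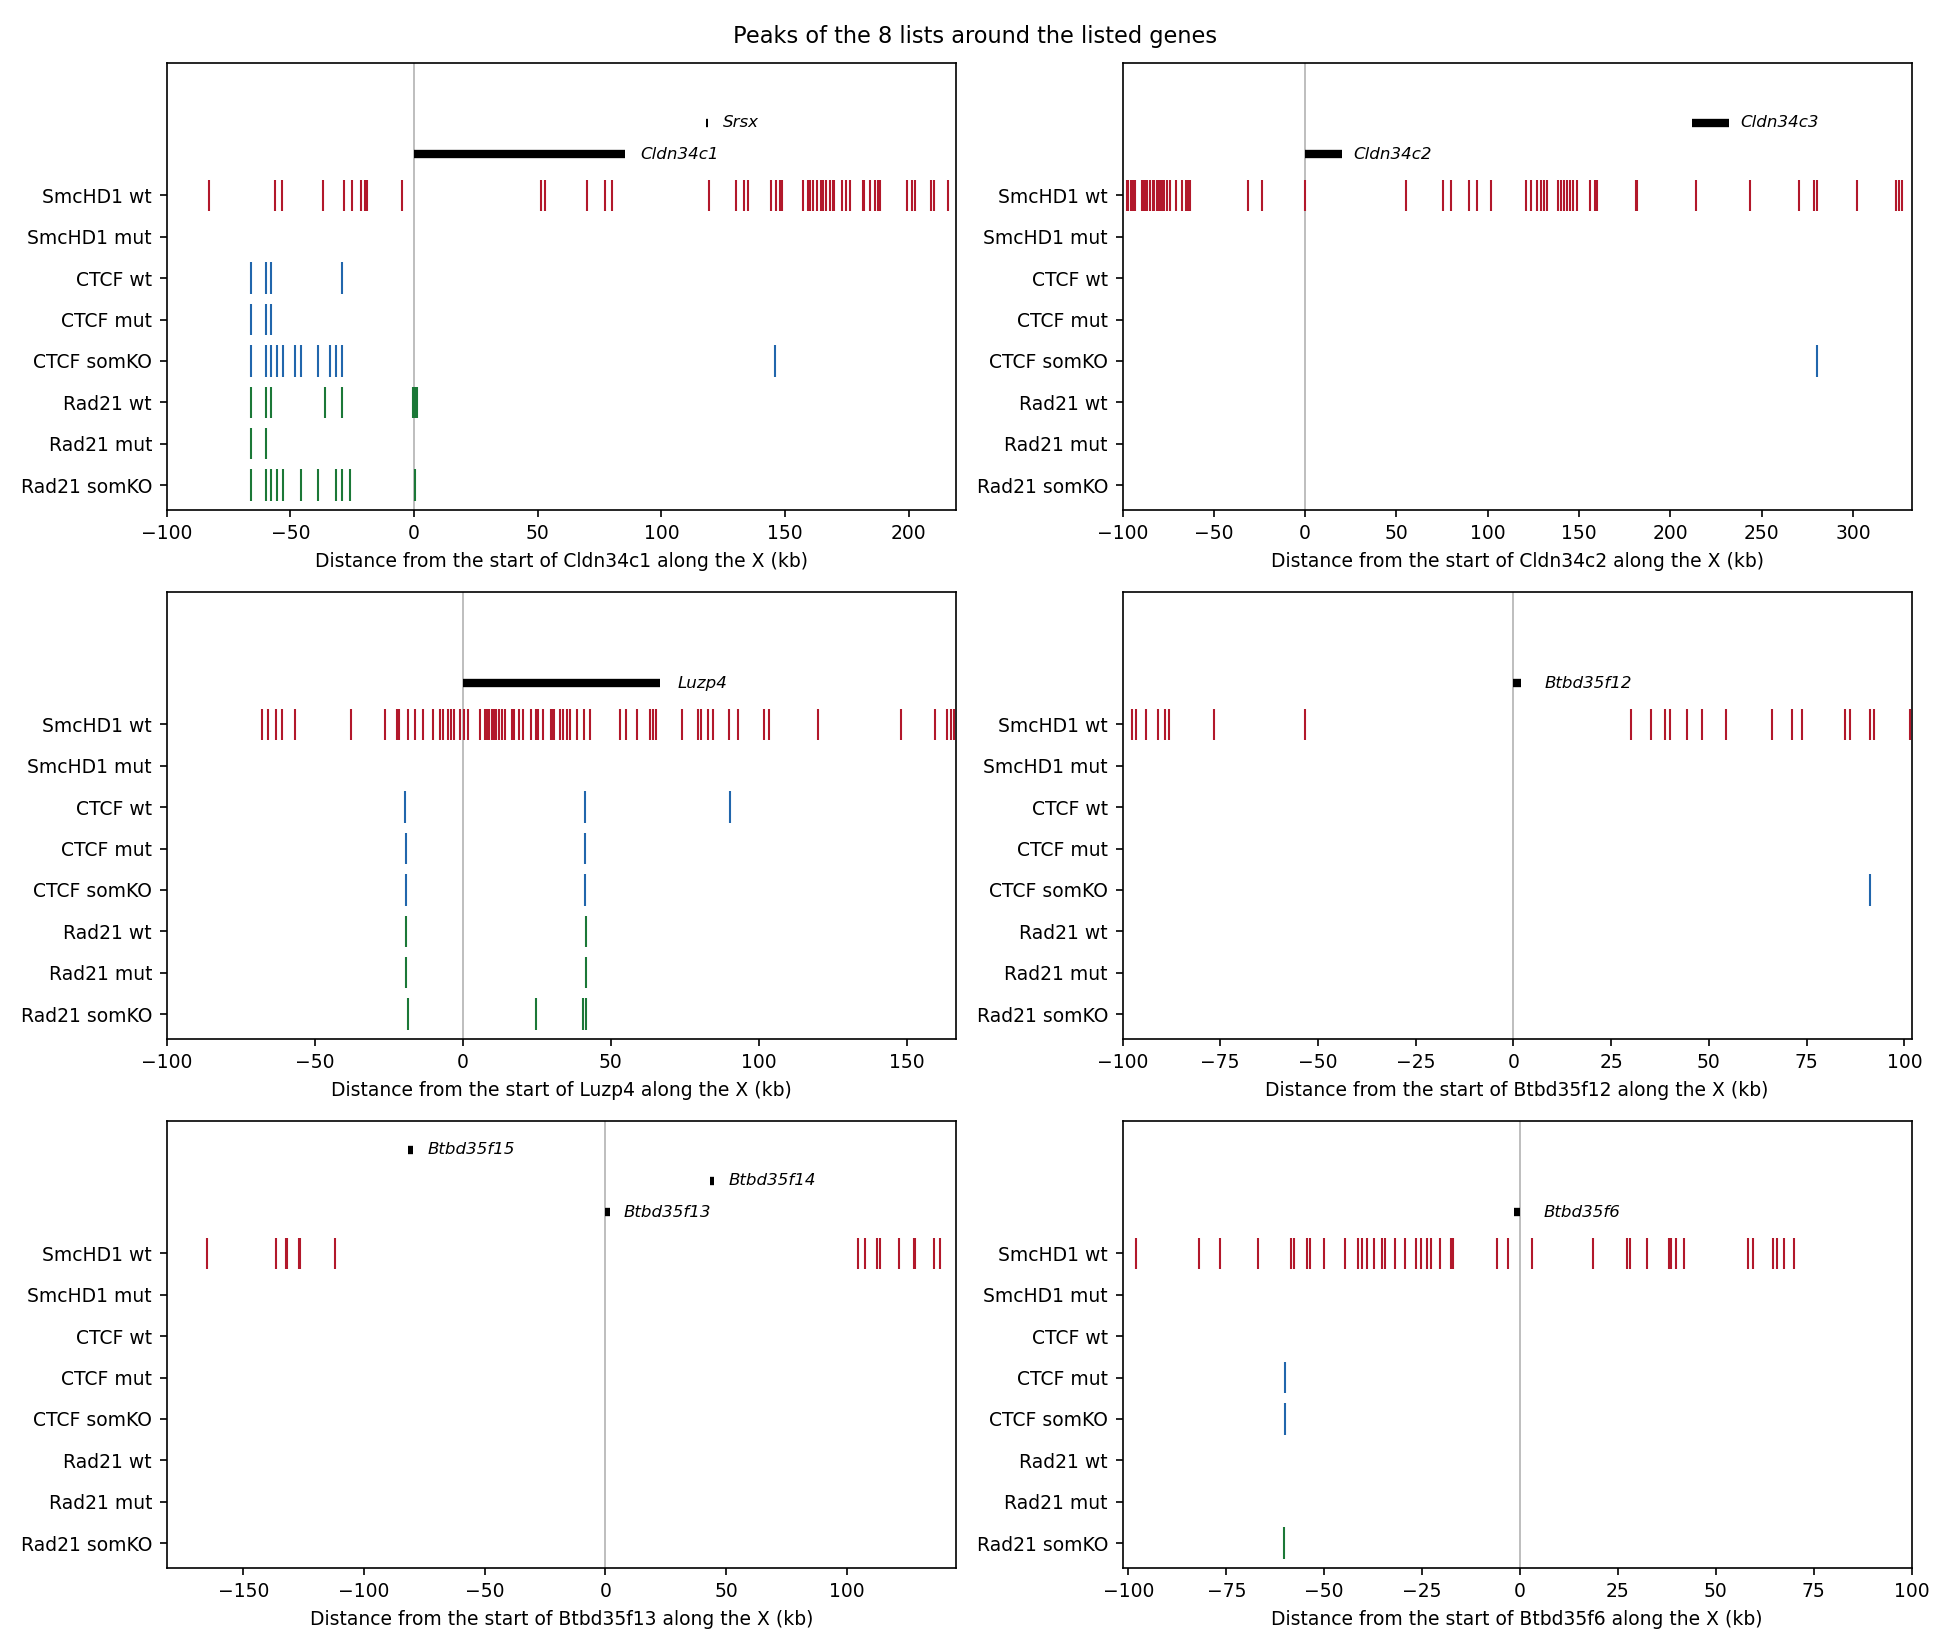
Midpoints of the peaks of the 8 lists (rows) as vertical ticks, red for SmcHD1, blue for CTCF and green for Rad21, against the distance in kb from the start of the gene named under each panel, with gene bodies as black bars. SmcHD1 wt ticks form dense rows in every panel but the one around Btbd35f13, the SmcHD1 mut rows are empty, and most CTCF and Rad21 ticks lie before Cldn34c1.

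Ranked by the number of SmcHD1 wt peaks within 100 kb of the gene, Luzp4 was the first of the 948 protein-coding genes of the X with 70 peaks. Btbd35f6 with 42 peaks was at rank 3, Cldn34c1 with 40 at rank 6, Srsx with 39 at rank 7, Cldn34c2 with 33 at rank 10 and Cldn34c3 with 28 at rank 13. Btbd35f12 had 23 peaks (rank 22), Btbd35f14 9 (rank 109), Btbd35f15 7 (rank 141) and Btbd35f13 0. Of the 948 genes 29.0% had 0 SmcHD1 wt peaks in that window, as Btbd35f13 had.

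Per 100 kb of window the order was Luzp4 (26.3, interval 20.5 to 33.2), Btbd35f6 (20.8, 15.0 to 28.2), Srsx (19.4, 13.8 to 26.5), Cldn34c2 (15.0, 10.3 to 21.0), Cldn34c1 (14.0, 10.0 to 19.1), Cldn34c3 (12.7, 8.45 to 18.4) and Btbd35f12 (11.4, 7.22 to 17.1). Then came Btbd35f14 (4.46, 2.04 to 8.47), Btbd35f15 (3.47, 1.39 to 7.14) and Btbd35f13 (0, up to 1.83). The exact Poisson intervals of neighbours in this order overlapped throughout. They treat the peaks as independent counts, although the peaks were clustered, and they describe the order without testing it.

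The Btbd35f genes differed in how near the SmcHD1 wt peaks lay. Btbd35f6 lay among SmcHD1 wt peaks, with the nearest peak 3.08 kb downstream of its start, past the end of the gene. Btbd35f12 lay in a stretch of 83511 bp between neighbouring peaks, whose midpoints were at -53.4 and 30.1 kb from its start. Around Btbd35f13, Btbd35f14 and Btbd35f15 a stretch of 217 kb between neighbouring peaks held no SmcHD1 wt peak, the longest such distance in any of the regions. The nearest peak was 105 kb from the start of Btbd35f13, 59.5 kb from that of Btbd35f14 and 32 kb from that of Btbd35f15. The Btbd35f regions include 27.2 kb of unknown bases, and the other regions include none.

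Neighbouring SmcHD1 wt peaks were a median of 1.98 kb apart in the Cldn34c regions (interval 1.63 to 2.85, 99 distances), 1.74 kb in the Srsx region (1.42 to 2.71, 38 distances) and 1.94 kb in the Luzp4 region (1.29 to 2.35, 69 distances). In the Btbd35f regions the median was 2.97 kb (2.40 to 4.74, 78 distances). Over all regions it was 2.20 kb (1.92 to 2.59), against 7.17 kb (5.93 to 8.65) on the rest of the X. The rest of the X was itself clustered, with 44.9% of its distances under 5 kb, against 72.9% in the regions. For Cldn34c the rows with the most peaks lay more than 50 kb from the genes. With 50 kb on each side the regions held 27 peaks at a median spacing of 7.86 kb (2.71 to 23.6), longer than on the rest of the X.

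The longest unbroken row, with every neighbour under 5 kb away, was at Luzp4. It held 43 peaks over 69.4 kb, from chrX:148831355-148900801, and ran from before the gene well into it. Before Cldn34c2 a row of 24 peaks spanned 35.1 kb at chrX:123483895-123519001. Downstream of Btbd35f6 a row of 16 peaks spanned 28 kb at chrX:33911678-33939686, and before Srsx a row of 14 spanned 19.5 kb at chrX:123260567-123280097.

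**Figure D2:**
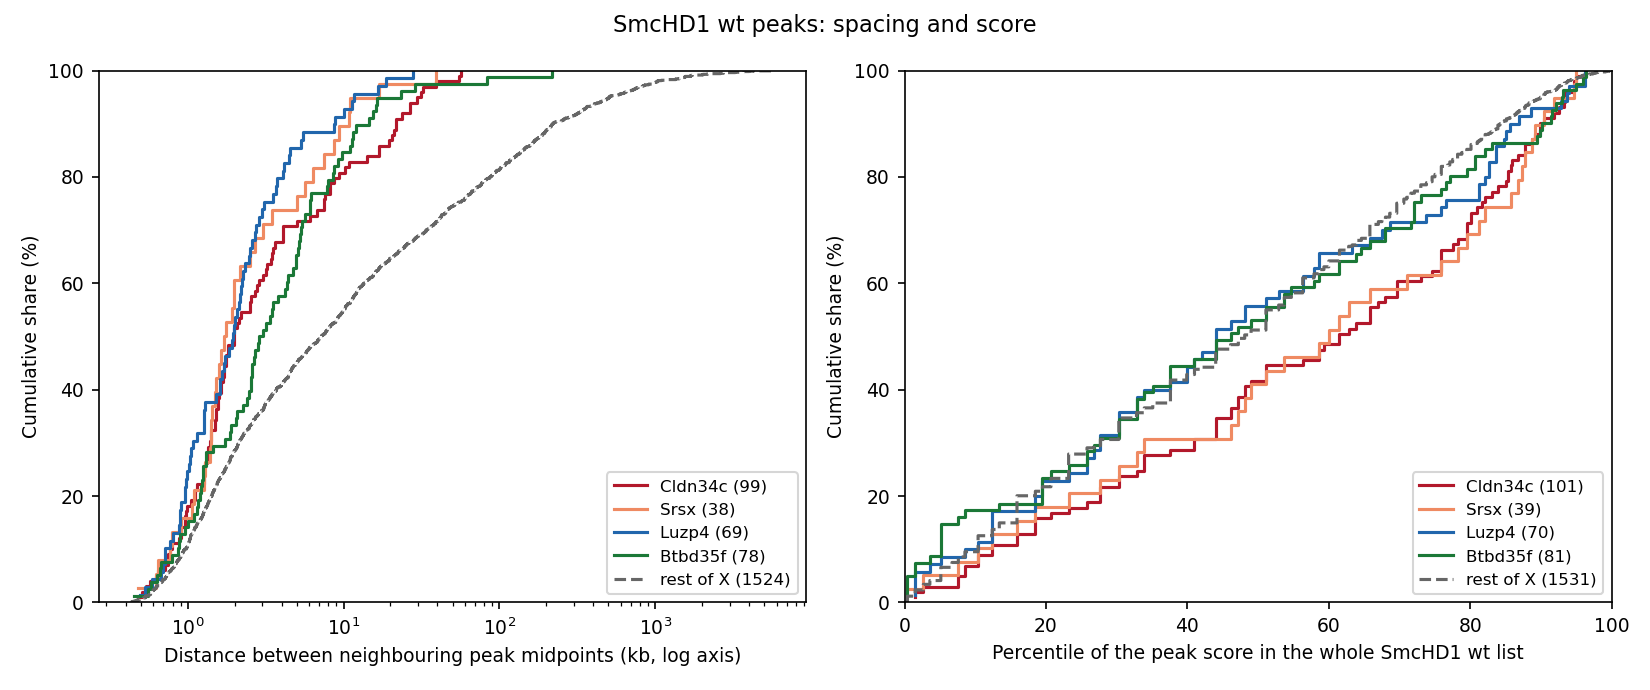
Cumulative share of SmcHD1 wt peaks (%) against the distance between neighbouring midpoints in kb on a log axis (left) and against the percentile of the peak score in the whole SmcHD1 wt list (right), for the 4 gene groups (solid lines) and the rest of the X (dashed), with the number of values in brackets. With 100 kb on each side the median distance is 1.74 to 2.97 kb in the 4 groups and 7.17 kb on the rest of the X, and the median percentile is 61.5 near Cldn34c, 60.0 near Srsx, 44.0 near Luzp4, 46.1 near Btbd35f and 48.1 on the rest of the X.

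The peaks were numerous rather than high. Scores, used here as ranks inside the SmcHD1 wt list, had a median percentile of 51.1 over all regions and 48.1 on the rest of the X. The median was 61.5 near the Cldn34c genes, 60.0 near Srsx, 44.0 near Luzp4 and 46.1 near the Btbd35f genes. These medians depended on the window: with 50 kb on each side that of Cldn34c was 46.1, below the rest of the X, and that of Btbd35f was 64.6, above it. The Srsx interval of 46.1 to 79.5 included the value of the rest of the X. The highest scores were 277 near Cldn34c, 222 near Srsx, 270 near Luzp4 and 273 near Btbd35f, whereas the rest of the X reached 2404. Peaks were wider near Cldn34c, Srsx and Luzp4, with medians of 421, 419 and 361 bp, than near Btbd35f with 324 bp or on the rest of the X with 311 bp.

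The peak of highest score near Cldn34c, of score 277, lay 89.2 kb before Cldn34c2 at chrX:123491845-123493219, inside the row of 24. It was followed by peaks of score 222 and 216, which lay 40.1 and 25.4 kb before Srsx and led the Srsx region too. A further peak of score 216 lay in the row of 24. Near Luzp4 a peak of 4539 bp at chrX:148841844-148846382, 13.5 kb before the gene, and a peak of 760 bp over an exon 24.7 kb inside it shared the score of 270. Near Btbd35f6 the leading peaks were 25.2 and 50.1 kb from its start, with scores of 273 and 263. Apart from the Luzp4 exon, all these leading peaks were intergenic.

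By annotation, 92.1% of the SmcHD1 wt peaks near Cldn34c and 98.8% of those near Btbd35f were intergenic, against 71.9% on the rest of the X. The share was 84.6% near Srsx. Luzp4 differed from these, with 35 of its 70 peaks in introns, 4 in exons and 31 (44.3%, 33.2 to 55.9) between genes. Soft-masked repeats made up 80.7% of the Cldn34c regions, 83.1% of the Srsx region, 61.8% of the Btbd35f regions and 51.6% of the Luzp4 region. On the whole X, these regions included, the share was 44.7%. Unknown bases were counted as unmasked.

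A SmcHD1 wt peak lay within 1 kb of the start of 3 of the 10 genes, Srsx, Cldn34c2 and Luzp4, where 17.5% of the protein-coding genes of the X had one. The edge of the peak was 44 bp from the start of Srsx, 116 bp from that of Cldn34c2 and 129 bp from that of Luzp4. For Cldn34c3 the nearest midpoint was 2.13 kb inside the gene, and for Cldn34c1 it was 5.02 kb before it. Of the RefSeq promoters, 2 of 6 overlapped a SmcHD1 wt peak, those of Srsx and Luzp4 printed above, against 8.75% of the 1223 promoters of the X. The RefSeq start of Luzp4 is not the GENCODE start: it lies about 25 kb inside the longer GENCODE gene, under the peak of score 270 over the exon.

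The peak at the start of Cldn34c2 had a copy at the same place in its sister gene. It is shown here because the list held a peak at this copy and not at the others, from chrX:123581356-123581584 on the plus strand, with no capitals.
Peak at the start of Cldn34c2: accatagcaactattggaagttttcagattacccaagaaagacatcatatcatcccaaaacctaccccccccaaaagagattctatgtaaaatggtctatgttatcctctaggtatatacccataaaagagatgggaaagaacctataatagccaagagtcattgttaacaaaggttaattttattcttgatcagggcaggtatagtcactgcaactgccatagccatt
The copy before Cldn34c3 lies at the same distance from the start, -0.230 kb, and matches at 98.3%, and no SmcHD1 wt peak was listed there. The peak listed at Cldn34c2 was weak, with a score of 31, a percentile of 27.7, where the lowest score of the list was 13. Whether a signal below the threshold lay at the copy cannot be seen from the list. None of the 5 copies of this sequence at 90% identity or more held a peak. Among the 15 copies of the peak at the start of Srsx the number with a peak was also 0. The peak at the start of Luzp4 had 34 copies, 12 of which held a SmcHD1 wt peak. Of its copies, 11 lay at the matching place of another gene, 0.349 to 0.357 kb after the start, and 3 of these held a peak, at Ott (99.8% identity), Gm15107 (92.2%) and Gm15097 (91.8%). Where reads match several copies equally, the list can show the peak at any of them, and the part of this in the counts was not tested.

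Nearly all sequences under the peaks occurred more than 1 time on the X. A further match of at least 95% identity over 80% of the length was found for 254 of 261 peaks (97.3%, 94.6 to 98.7), against 68.1% (65.7 to 70.3) on the rest of the X. The median number of further matches was 13 for Cldn34c peaks, 12 for Srsx, 10.0 for Luzp4 and 16 for Btbd35f, and 6 on the rest of the X. At 99% identity the share fell to 68.3% for Cldn34c, 74.4% for Srsx, 47.1% (35.9 to 58.7) for Luzp4 and 81.5% for Btbd35f, against 39.9% on the rest of the X, which the Luzp4 interval included. Grouped at 90% identity, the 261 peaks formed 205 sequence groups, 177 of them with a single peak, and the largest had 7 peaks.

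Copies of the same sequence carried a SmcHD1 wt peak in some stretches and not in others. Sequences of Cldn34c peaks had 188 further places inside the Cldn34c regions, of which 62 held a peak (33.0%, 26.7 to 40.0). Outside the Cldn34c regions but still between 123 and 124 Mb, 35 of 75 places held one (46.7%, 35.8 to 57.8). That stretch includes the part of the Srsx region beyond the Cldn34c regions, which was itself picked for dense peaks. Between 124 and 128 Mb, 2 of 436 did (0.459%, 0.126 to 1.66). Among copies at 99% identity, 31 of 67 places inside the regions held a peak (46.3%, 34.9 to 58.1). Outside them 23 of 62 did (37.1%, 26.2 to 49.5), and these intervals overlapped. Between 124 and 128 Mb it was 0 of 22 (Wilson interval up to 14.9%).

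The far stretch was not empty of other peaks. Between 124 and 128 Mb there were 6 CTCF wt, 5 CTCF mut and 12 CTCF somKO peaks, and 5, 4 and 16 Rad21 peaks, beside 6 SmcHD1 wt peaks. That is 0.150 SmcHD1 wt peaks per 100 kb, against 15.5 between 123 and 124 Mb. Cldn34c4 itself had 0 SmcHD1 wt peaks within 100 kb. Since the genes were picked for their dense peaks, a higher share inside their regions follows in part from the choice.

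Over all places outside the Cldn34c regions, 41 of 551 Cldn34c copies held a peak (7.44%, 5.53 to 9.94). Places of Luzp4 peak sequences held a peak in 13 of 26 cases inside the region and in 45 of 438 between 148 and 150 Mb outside it (10.3%, 7.77 to 13.5). Over all places outside the Luzp4 region 61 of 1653 held one (3.69%, 2.88 to 4.71). Places of Btbd35f sequences held one in 14 of 127 cases inside the regions (11%, 6.68 to 17.7). Elsewhere between 31 and 35 Mb 87 of 530 did (16.4%, 13.5 to 19.8), and between 3 and 6 Mb, where other Btbd35f genes lie, 63 of 470 (13.4%, 10.6 to 16.8). These Btbd35f intervals overlapped. In the parts of the X outside all the stretches named here, and outside the regions, 9 of 421 Btbd35f places held a peak (2.14%, 1.13 to 4.01).

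**Figure D3:**
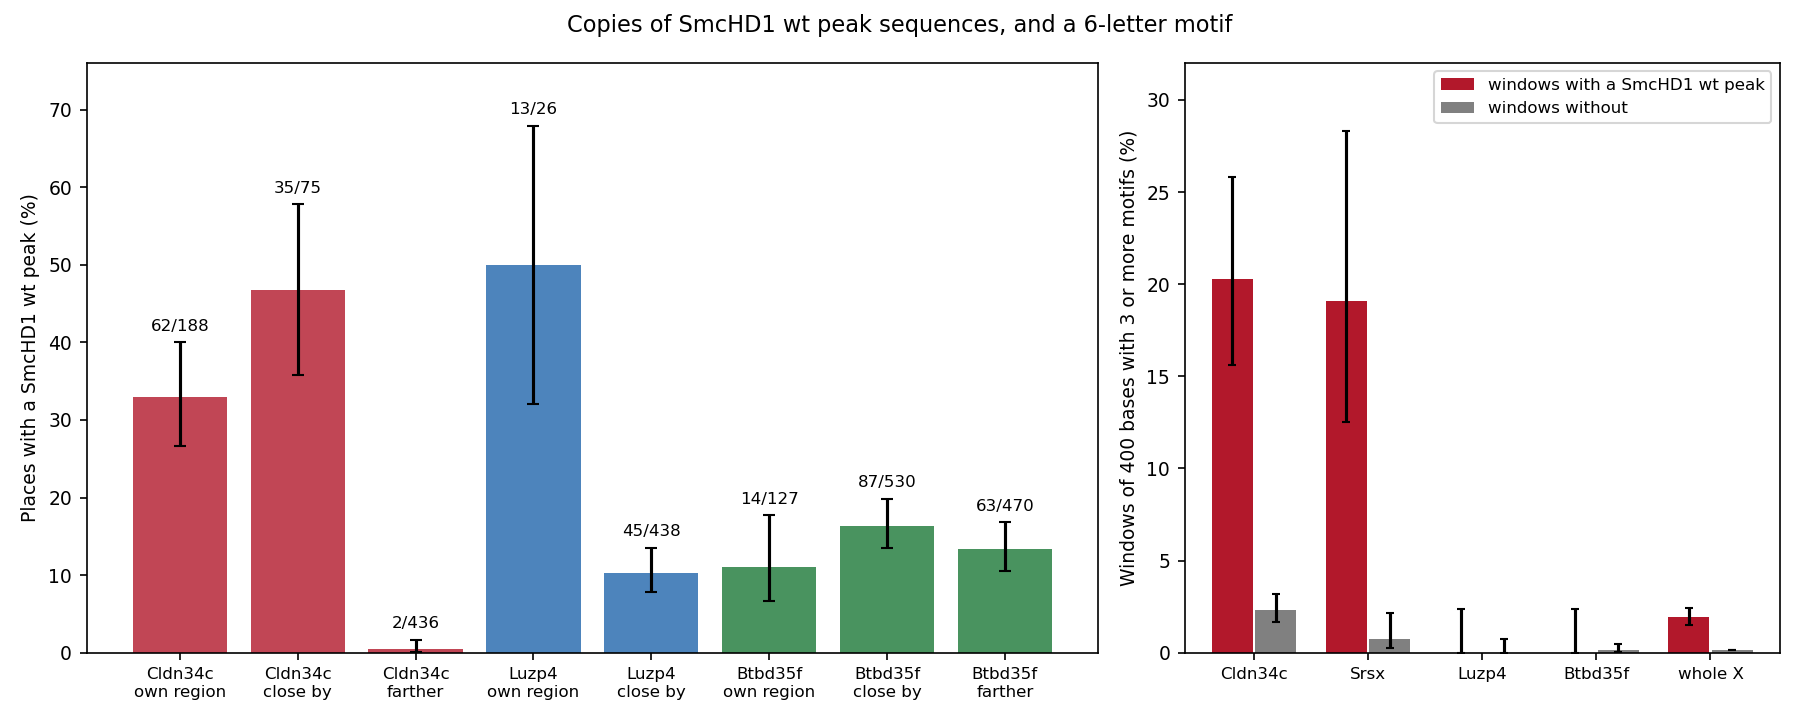
Left, share (%) of places with at least 95% identity to a SmcHD1 wt peak of the named genes that themselves held a SmcHD1 wt peak, with counts above the bars; close by stands for the same few Mb outside the region and farther for the next array, and lines are 95% Wilson intervals. Right, share (%) of 400-base windows with at least 3 CCCTAA on either strand, for windows with and without a SmcHD1 wt peak. The lowest bar on the left is that of the farther Cldn34c copies, with 2 of 436, and the right panel shows the motif in Cldn34c and Srsx windows with a peak. The Cldn34c and Srsx regions overlap, so these windows are partly the same.

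The top Cldn34c peak printed above held 8 CCCTAA, the letters of the telomere repeat, in 300 bases, all on the plus strand. The letters were counted on both strands in all peaks after that sequence had been seen. At least 3 of them occurred in 22 of 101 Cldn34c peaks (21.8%, 14.8 to 30.8) and in 9 of 39 Srsx peaks (23.1%, 12.6 to 38.3). The number was 1 of 70 for Luzp4, 1 of 81 for Btbd35f and 8 of 1531 (0.523%, 0.265 to 1.03) on the rest of the X. Over all regions it was 24 of 261, so the 9 Srsx peaks are all among the 22 Cldn34c peaks and are no second group. In windows of 400 bases along the Cldn34c regions, 48 of 237 windows with a SmcHD1 wt peak held at least 3 (20.3%, 15.6 to 25.8), and 36 of 1556 windows without a peak did (2.31%, 1.68 to 3.19). Over all of the X 0.179% of such windows did. At 90% identity 45 of 110 Cldn34c and Srsx peaks were like another of that locus, and a wide peak covers several windows. The intervals treat peaks and windows as independent, which they are not. A single CCCTAA or more was as common in Luzp4 peaks (14.3%) and Btbd35f peaks (16.0%) as in peaks of the rest of the X (15.3%), and was found in 52.5% of Cldn34c and 61.5% of Srsx peaks.

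Few of the SmcHD1 wt peaks of these regions overlapped CTCF or Rad21. An overlap with a CTCF or Rad21 wt peak was found for 2 of 261 (0.766%, 0.210 to 2.75), both at Luzp4, where on the X 14.2% of SmcHD1 wt peaks and in the whole list 32.3% had one. Against CTCF wt alone the count was 2, with 8.43% on the X, and against Rad21 wt alone 1, with 11.9% on the X. Near Cldn34c, Srsx and Btbd35f the count was 0, which by 3 counts of the total allows a share of up to 2.97%, 7.69% and 3.70%. With the somKO lists 4 of 261 overlapped CTCF, against 10.8% on the X, and 4 overlapped Rad21, against 15.0%. The genes were picked for many SmcHD1 wt peaks, and their regions held 7 CTCF and 10 Rad21 wt peaks. A low share of the SmcHD1 wt peaks therefore follows in part from the choice. On the X there were 1942 CTCF wt peaks for 151 overlapping SmcHD1 wt peaks, and 1852 Rad21 wt peaks for 214.

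CTCF and Rad21 peaks were few around most of the genes. Within 100 kb, 8 of 10 genes had 0 CTCF wt peaks, against 12.9% of the protein-coding genes of the X, and 8 of 10 had 0 Rad21 wt peaks, against 16.2%. The exceptions were Cldn34c1 and Luzp4 for both antibodies. Over all regions the wt lists held 7 CTCF and 10 Rad21 peaks, the mut lists 6 and 4, and the somKO lists 17 and 16.

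The changes with genotype lay mainly near Cldn34c1. In the Cldn34c regions the wt list of CTCF had 4 peaks, the mut list 3 and the somKO list 13. For Rad21 the wt list had 8 peaks there, the mut list 2 and the somKO list 11. The Luzp4 region held 3, 2 and 2 CTCF and 2, 2 and 4 Rad21 peaks, and the Btbd35f regions 0, 1 and 2 CTCF and 0, 0 and 1 Rad21 peaks. Around Srsx there was 1 CTCF peak in somKO and 0 in the other 5 lists.

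**Figure D4:**
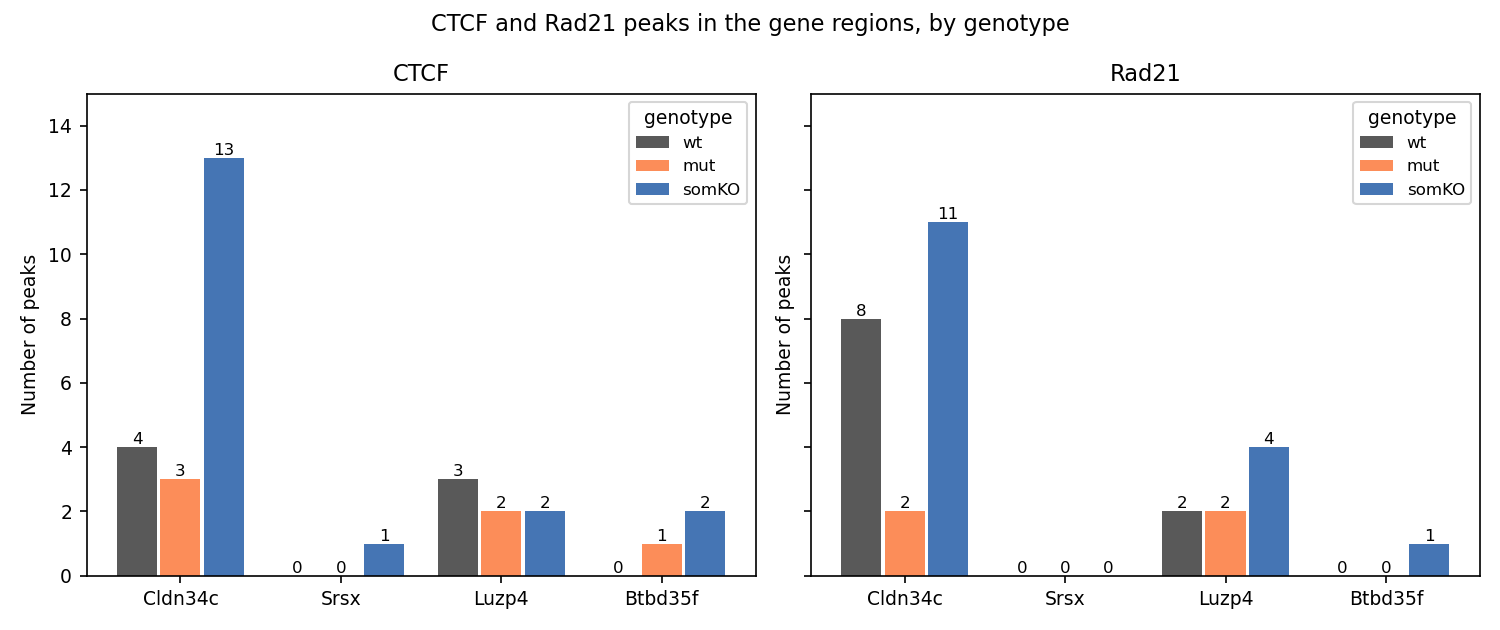
Number of CTCF (left) and Rad21 (right) peaks in the region of each gene group, for wt (grey), mut (orange) and somKO (blue), 1 list each, so without error bars. The Cldn34c regions go from 4 CTCF peaks in wt to 3 in mut and 13 in somKO, and from 8 Rad21 peaks in wt to 2 in mut and 11 in somKO.

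Of the 17 CTCF somKO peaks 11 had no overlapping wt peak (64.7%, 41.3 to 82.7), where 26.7% of CTCF somKO peaks on the X had none. Of the 16 Rad21 somKO peaks 9 had none (56.2%, 33.2 to 76.9), where 38.7% on the X had none. In mut, 6 of the 10 Rad21 wt peaks were without an overlapping peak (60.0%, 31.3 to 83.2), where 34.7% on the X were. For CTCF it was 2 of the 7 wt peaks (28.6%, 8.22 to 64.1), where 23.7% on the X were. Except for CTCF in somKO, these intervals included the share on the X. They treat the peaks as independent counts. However, most of the new CTCF somKO peaks lay on a tandem repeat, and several Rad21 wt peaks lay together at the start of Cldn34c1. The somKO lists are the longest, and with each antibody's lists cut to equal length by score the Cldn34c regions held 4, 3 and 10 CTCF peaks and 7, 2 and 8 Rad21 peaks.

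Most of the Cldn34c peaks of the somKO lists fell on a tandem repeat, which was looked for after the positions of the peaks had been seen. Upstream of Cldn34c1 a stretch of 26.7 kb matched itself at 94.6% identity when shifted by 2.39 kb. The CTCF somKO peak printed above had 13 copies, itself included, at 95% identity or more, in a row from chrX:123045655-123074495, 57.8 to 29.0 kb before the start of Cldn34c1. The copies were 2.31 to 2.42 kb apart, with a median step of 2.38 kb, and the 12 others matched the printed one at 96.2% to 98.6%. No copy of that identity was found elsewhere on the X. Of the 286 positions, 269 were identical in all 13.

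On these 13 copies CTCF peaks were listed at 2 in wt, at 1 in mut and at 9 in somKO. Rad21 peaks were listed at 3 in wt, 0 in mut and 7 in somKO. The lists differ in length, and weak peaks added to a longer list raise the percentile of an unchanged peak, so percentiles of different genotypes are given side by side and read as no difference between them. The 2 copies with CTCF in wt were the first and the last of the row, with score percentiles of 43.1 and 50.4. The first copy kept a CTCF peak in mut at a percentile of 3.27, and in somKO it was at 56.5. The last copy had no peak in mut and was at 59.4 for CTCF and 70.8 for Rad21 in somKO. Between them CTCF somKO peaks stood on 7 of the 11 inner copies, at percentiles of 8.04 to 46.7, where wt and mut had 0.

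All 7 copies with Rad21 in somKO also had CTCF in somKO. SmcHD1 wt had a peak on 1 of the 13 copies, 36.3 kb before Cldn34c1, at a percentile of 48.1, and 3 peaks in the row as a whole. The same copy had the lowest Rad21 wt peak of the region, at a percentile of 1.30. Reads from near-identical copies may be placed at any of them, so a peak at 1 copy and not at the next does not tell which copies were bound.

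**Figure D5:**
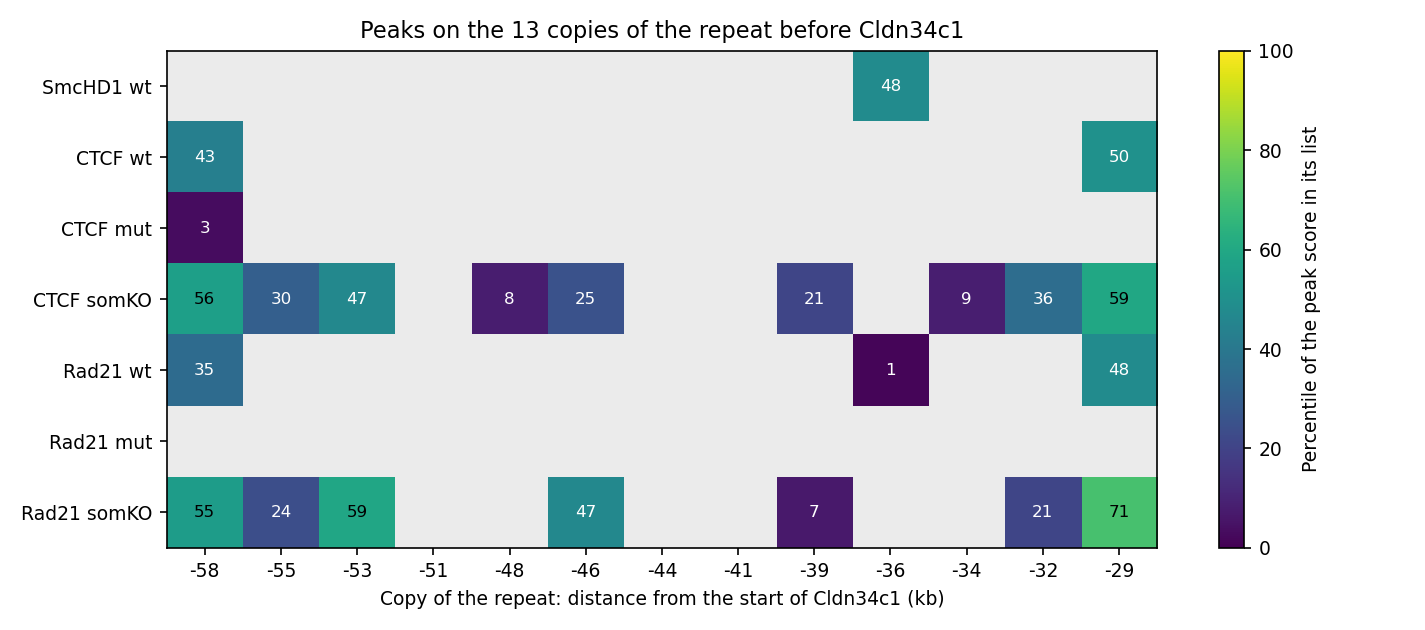
Score percentile of the peak in its own list (colour and number) on each of the 13 copies of the 2.38 kb repeat (columns, by distance in kb from the start of Cldn34c1) in 7 lists (rows), with grey where no peak was listed. CTCF somKO has peaks on 9 copies and Rad21 somKO on 7, whereas wt has them at 2 and 3 and mut at 1 and 0.

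Beside the repeat, 2 sites held a peak in all 6 CTCF and Rad21 lists. The site at chrX:123037522-123037999, 65.7 kb before Cldn34c1, had CTCF percentiles of 65.1 in wt, 47.8 in mut and 79.1 in somKO. Its Rad21 percentiles were 66.2, 39.7 and 78.6. The site at chrX:123043341-123043951, 59.8 kb before the gene, had CTCF percentiles of 57.5, 33.7 and 67.3 and Rad21 percentiles of 55.2, 29.6 and 72.9. Neither site had a further match of 95% identity on the X and neither overlapped a SmcHD1 wt peak.

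The start of Cldn34c1 had Rad21 without CTCF. In wt 3 Rad21 peaks lay there, the first at chrX:123103025-123103375 with a percentile of 17.9. In somKO a single Rad21 peak at chrX:123102670-123104950, percentile 52.6, covered the whole of it, and the mut list had none. The CG-rich promoter printed above lies inside the somKO peak, and this site had no further match on the X. Of the 6 RefSeq promoters it was the 1 that overlapped Rad21 wt, where 18.7% of the promoters of the X did.

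Around Cldn34c2 all 6 CTCF and Rad21 lists had 0 peaks within 100 kb. Around Cldn34c3 there was 1 CTCF peak, in somKO, 68.2 kb after its start, and it overlapped a SmcHD1 wt peak. In the order Cldn34c1, Cldn34c2 and Cldn34c3 there were 4, 0 and 0 CTCF wt peaks, 8, 0 and 0 Rad21 wt peaks and 40, 33 and 28 SmcHD1 wt peaks. Cldn34c1 is 85.3 kb long and the other two 20.4 and 20.1 kb, and the sequence at the start of Cldn34c2 matches a place 19.2 kb inside Cldn34c1, so the start and flank of Cldn34c1 are not shown to be like theirs.

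At Luzp4, 3 of the 4 CTCF and Rad21 sites stood inside the SmcHD1 row of 43 peaks. The site at chrX:148837434-148840168, 18.8 kb before the gene, was in all 6 lists, with CTCF percentiles of 97.2, 97.7 and 99.6 and Rad21 percentiles of 76.4, 77.3 and 74.8 in the order wt, mut and somKO. The site at chrX:148898017-148899912, 41.3 kb inside the gene, was also in all 6, with CTCF percentiles of 65.2, 73.7 and 92.5 and Rad21 percentiles of 35.6, 44.8 and 81.8. Both were overlapped by a SmcHD1 wt peak. The first was among the highest CTCF peaks of every list. In order of position, the 4 Luzp4 sites had 5, 12, 12 and 9 further matches of 95% identity on the X.

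Another Luzp4 site had Rad21 in somKO and none of the other CTCF and Rad21 lists, at chrX:148881900-148882711 with a percentile of 45.5. It covered the Luzp4 promoter printed above and nearly coincided with the SmcHD1 wt peak of score 270 over that exon. In somKO 2 of the 6 RefSeq promoters overlapped Rad21, those of Cldn34c1 and Luzp4, where 26.4% on the X did. The last Luzp4 site, beyond the row, held CTCF in wt alone, 90.3 kb from the GENCODE start, at a percentile of 8.92.

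Around the Btbd35f genes all CTCF and Rad21 peaks came from the mut and somKO lists. A site 60.2 kb downstream of the start of Btbd35f6, at chrX:33896137-33896601, had CTCF at percentiles of 16.1 in mut and 43.9 in somKO and Rad21 at 51.4 in somKO, with no peak in wt. A site 91.2 kb from Btbd35f12 had CTCF in somKO at a percentile of 7.53, and it overlapped a SmcHD1 wt peak. This site had 22 further matches of 95% identity on the X, and the site near Btbd35f6 had 9. Just outside the third window, 2 CTCF sites 8.66 and 13.5 kb from its edge were in the wt, mut and somKO lists, with Rad21 in mut and somKO and not in wt. Their Rad21 percentiles were 67.5 and 62.6 in mut and 76.7 and 72.5 in somKO.

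A short core of the CTCF motif, the letters CCA, AG and GGC in that order with 2 unspecified bases after each of the first pair, on either strand, was rare under these peaks. It was found in 3 of 17 CTCF somKO peaks of the regions (17.6%, 6.19 to 41.0) and in 45.0% on the rest of the X. In CTCF wt it was in 1 of 7, against 45.4%, and in SmcHD1 wt peaks in 5 of 261 (1.92%, 0.821 to 4.41), against 4.18%. None of the CTCF and Rad21 sites listed on the repeat held it, nor did the Luzp4 sites present in all 6 lists. Repeat copies without a listed peak were not searched. The sites that did are shown with 12 bases on each side and the core in capitals. They lie at chrX:123861860-123861895 on the plus strand, chrX:148882111-148882146 on the minus strand, chrX:148947863-148947898 on the plus strand, chrX:33404638-33404673 on the plus strand and chrX:33896426-33896461 on the minus strand.
Cldn34c3, CTCF somKO: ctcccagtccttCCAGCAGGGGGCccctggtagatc
Luzp4 promoter site, Rad21 somKO: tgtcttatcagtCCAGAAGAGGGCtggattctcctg
Luzp4, CTCF wt: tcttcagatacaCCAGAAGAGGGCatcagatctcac
Btbd35f12, CTCF somKO: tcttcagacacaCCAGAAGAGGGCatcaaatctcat
Btbd35f6, CTCF mut and somKO, Rad21 somKO: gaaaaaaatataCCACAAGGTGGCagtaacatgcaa

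Other genes of the same names and other multicopy groups of the X gave the setting. All 25 other Btbd35f genes had at least 1 SmcHD1 wt peak within 100 kb, with a median of 10.0 and a highest of 33 at Btbd35f29, so Btbd35f13 was the 1 gene of the name with 0. Of these 25 genes 22 had 0 CTCF wt and 24 had 0 Rad21 wt peaks. Of the 8 other Cldn34 genes 4 had 0 SmcHD1 wt peaks and the highest, Cldn34b1, had 14. Over 15 other multicopy groups the density ran from 0.199 per 100 kb at Cypt to 10.1 at Spin2, which lies among the Btbd35f genes, with a median of 2.96.

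The genes most like each group over the 8 lists were chosen by the sum of absolute differences of log2 (peaks per 100 kb + 1), among 931 protein-coding genes of the X outside the regions. Nearest to the Cldn34c genes was Gm15097, with 46 SmcHD1 wt, 1 CTCF wt, 5 CTCF somKO and 1 Rad21 wt peak, followed by Btbd35f29, Spin2f, Magea2 and Xlr3b. Nearest to Srsx was Btbd35f11, with 16 SmcHD1 wt peaks and 0 CTCF wt and Rad21 wt peaks, followed by Gm5926, Magea8, Btbd35f1 and Btbd35f24. Nearest to Luzp4 was Magea2, with 25 SmcHD1 wt, 2 CTCF wt and 2 Rad21 wt peaks, followed by Spin2f, Magea5, Btbd35f29 and Spin2g. Nearest to the Btbd35f genes was Btbd35f1, with 22 SmcHD1 wt peaks and 0 in the other lists, followed by Btbd35f24, Magea8, Gm5926 and Magea3. Several of these belong to other multicopy groups of the X, such as the Magea and Spin2 genes.

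Between the Srsx and Cldn34c2 windows, a stretch of 159 kb that belongs to neither held a further 15 SmcHD1 wt peaks and 1 CTCF somKO peak. SmcHD1 wt peaks of the claudin locus thus also lay outside the windows.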

How the data were processed

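The authors aligned ChIP-seq reads with Bowtie2 to mm10 with strain variants masked, merged the libraries of each group and called narrow peaks with MACS2 at a q-value threshold of 0.05. Their versions, the use of input and the treatment of multi-mapping reads are not given in the sources used here. The deposited score column, 13 at its lowest in every list, is taken, by inference, for the −log10 q-value multiplied by 10, and was used only as a percentile within its own list. Depth is unknown and replicates were pooled, so nothing was tested. The 8 lists drew on 24 of 52 libraries. The others were not used here.

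Members, lists and rules were chosen with earlier results of these data known. A peak overlapped another when they shared at least 1 bp. A share was given with its Wilson interval (a count of 0 with the limit of 3 counts or, where named, of Wilson), a count with its exact Poisson interval. The members' genes, the 3 SmcHD1 wt peaks of highest score a group, the CTCF and Rad21 peaks (where 5 or fewer, otherwise the 3 highest; sites in the repeat were added after their values were seen) and the 5 most alike genes were named. Peak sequences were matched within the X of GRCm38.p6 by blastn 2.17.0 over at least 80% of their length. Python 3.11.15, numpy 2.4.6, pandas 2.3.3 and scipy 1.17.1 were used, and the counting was tested on simulated data. Alternatives changed the extension, the score minimum, the overlap, the list length and the identity. CCCTAA, the repeat and the copies of peaks at gene starts were examined after values had been seen.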

Additional observations from a re-analysis of the deposited data

Results flagged for a closer look

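In the Cldn34c regions the mut and somKO lists moved in opposite directions from wt for both antibodies. The wt list of CTCF had 4 peaks, the mut list 3 and the somKO list 13, and the Rad21 lists had 8, 2 and 11 in the same order. The same order held on the whole X, with 1942, 1636 and 2450 CTCF and 1852, 1477 and 2654 Rad21 peaks for wt, mut and somKO. With lists of equal length the Cldn34c regions held 4, 3 and 10 CTCF and 7, 2 and 8 Rad21 peaks. The difference was not tested, since there is 1 list for each genotype. The genotypes are also different clones, and the somKO parent clone has an extra chromosome set, so genotype, clone and copy number cannot be told apart.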

How the results depend on the processing

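No paired analysis was possible because each group has 1 list made from merged reads, and for the same reason no replicate could be left out. Over all regions together, 26 of 42 alternative values stayed within the counting interval or 1.5 times the value reported and 16 moved. For the single groups 119 of 168 stayed and 49 moved. With 50 kb on each side the Cldn34c spacing, 7.86 kb, and the median percentiles of Cldn34c (46.1) and Btbd35f (64.6) changed sides against the rest of the X (7.17 kb and 48.1). With 50 kb in place of 100 kb the counts were 136 for SmcHD1 wt, 4, 2 and 10 for CTCF wt, mut and somKO, 2 for Rad21 mut and 10 for Rad21 somKO. With 200 kb they were 12 for CTCF wt, 27 for CTCF somKO and 7 for Rad21 mut. With scores of 50 or more they were 120 for SmcHD1 wt and 6 for Rad21 wt, and the median spacing was 3.24 kb. Measured from edge to edge the spacing was 1.60 kb. The share of SmcHD1 wt peaks overlapping CTCF or Rad21 wt was 0% when 50% of both peaks had to overlap. A further match was found for 99.2% at 90% identity and 67.8% at 99%. With lists of equal length there were 13 CTCF somKO, 9 Rad21 wt and 12 Rad21 somKO peaks.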
